A study of Mus musculus with 16 samples.

Results

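The transcripts described here encode 9 enzymes or enzyme subunits of the mitochondrial tricarboxylic acid cycle: Cs, Idh2, Idh3a, Ogdh, Sucla2, Suclg1, Sdha, Fh1 and Mdh2. They were chosen by gene name from tables that list 24327 usable gene names in both conditions, and all 9 were found and tested. The RNA-seq libraries are of whole quadriceps from C57BL/6 males aged 4 months. The 4 groups were HDAC3-KO mice after treadmill running, wild-type (WT) mice after treadmill running, HDAC3-KO mice at rest and WT mice at rest, with 3 libraries each. The runners completed 3 treadmill sessions, each lasting 1 h at a speed of 10 m/min and separated by rests of 1 h, and were sampled 2 h after finishing. The series set out to compare muscle that lacks the histone deacetylase HDAC3 with WT muscle in both states; what drives the deletion is not given in the sources used here. The labels do not say that the libraries came from separate animals, so the p-values measure the spread between these libraries, which may be technical.

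The tricarboxylic acid cycle oxidises the acetyl group of acetyl-CoA, the common product of glucose, fatty acid and amino acid breakdown, and passes the electrons to the respiratory chain. Citrate synthase (Cs) joins acetyl-CoA to oxaloacetate, and its activity is widely used as a marker of mitochondrial content in muscle. Later steps, among them isocitrate dehydrogenase, the 2-oxoglutarate dehydrogenase complex (Ogdh), succinyl-CoA synthetase (Suclg1 and Sucla2), succinate dehydrogenase (Sdha), fumarase (Fh1) and malate dehydrogenase (Mdh2) return the carbon to oxaloacetate. Isocitrate is oxidised by the NAD-dependent enzyme, whose catalytic subunit is Idh3a, and by the NADP-dependent enzyme Idh2.

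Values were deposited as FPKM, fragments per kilobase of transcript and scaled to library size, so levels of different genes can be compared per length. FPKM summed to between 454359 and 522584 per library, the read depth behind these values was unknown, and Pearson's r of log2 values within a group lay between 0.967 and 0.984. The targeted gene, Hdac3, stood at 5.32, 6.37 and 4.13 FPKM in KO running libraries, against 31.0, 32.0 and 27.6 FPKM in WT running libraries. It stood at 5.51, 6.29 and 8.16 FPKM in KO resting libraries, against 33.3, 31.0 and 23.7 FPKM in WT resting libraries. Every library matched its genotype label, although transcript remained in KO muscle. All 10 markers of skeletal muscle fibres reached 1 FPKM in every library. The neutrophil gene S100a8 stood apart in KO running library 3 (156 FPKM) and WT resting library 2 (239.5 FPKM). It reached at most 6.20 FPKM in the other 10 libraries. For that reason limma results are also given without these libraries where a call changes, but marker sums are not.

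All 9 transcripts were abundant in every group. Their group means exceeded those of 92.6% to 98.1% of the 8854 genes tested in both conditions, and single values ran from 70.5 to 429 FPKM. Cs stood highest in KO muscle after running, at 399.6 ± 26.2 FPKM, with no overlap with Sdha, the next member, at 321 ± 29.9 FPKM (SD, n = 3 each). In WT muscle after running Sucla2, Sdha and Cs led and overlapped with each neighbour among them, and Cs did not overlap with Idh3a below it. In resting muscle of both genotypes Cs, Sucla2, Sdha and Idh3a led and overlapped likewise, and the lowest of them by mean did not overlap with Mdh2 below it. Ogdh and Idh2 stood at the bottom of the order in WT muscle, at 92.2 ± 6.32 and 97.3 ± 15.2 FPKM after running and at 89.0 ± 9.62 and 84.4 ± 14.8 FPKM at rest (SD, n = 3). In KO muscle Ogdh was lowest by mean, and Idh2 ranked 8 of 9 after running, overlapping with Fh1 and Ogdh, and 6 of 9 at rest.

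**Figure D1:**
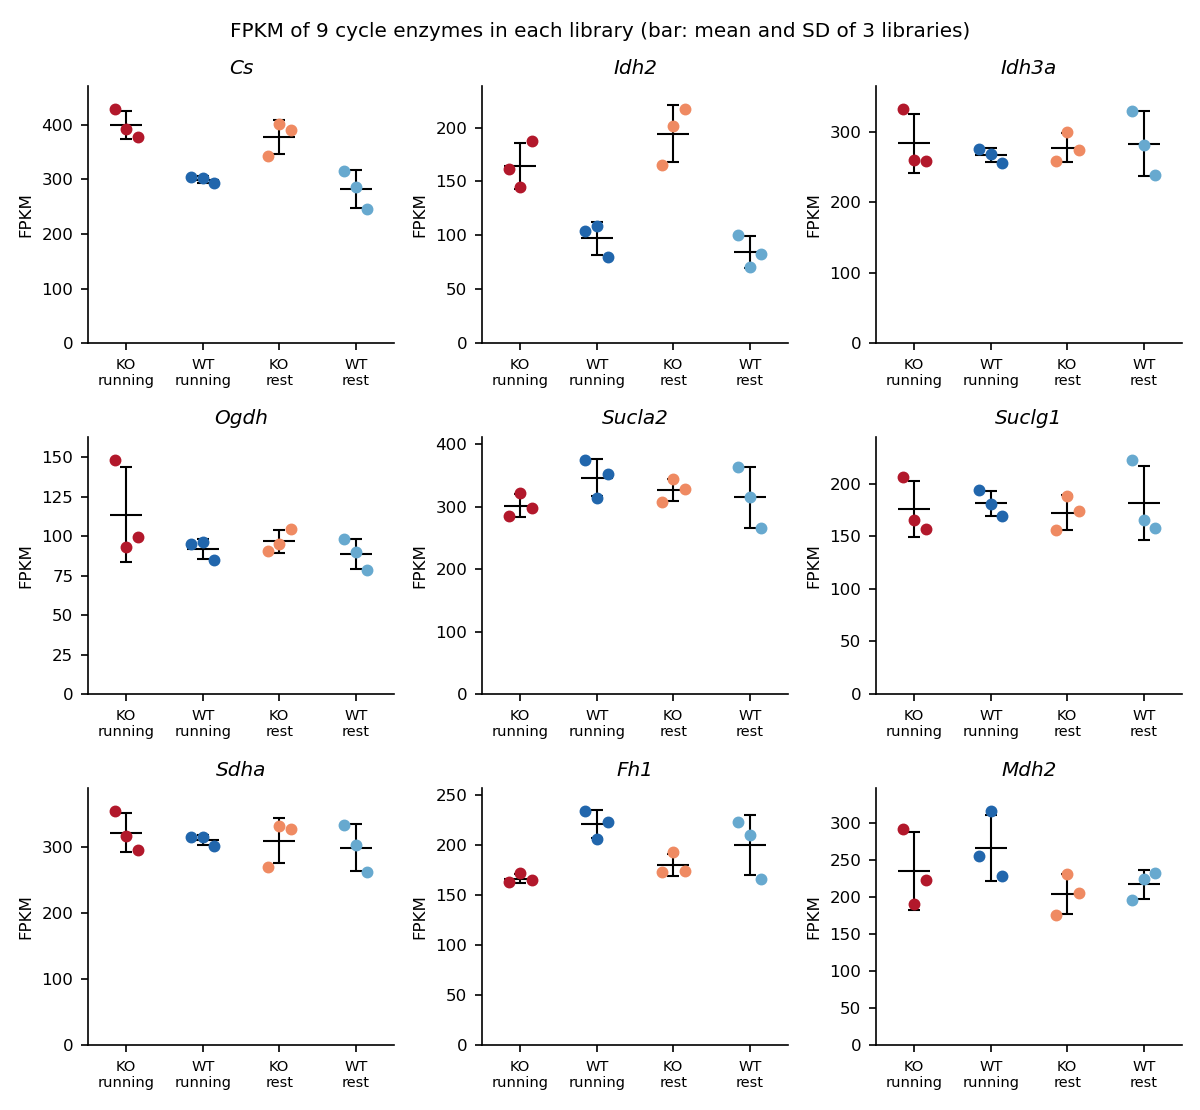
FPKM (vertical axis, starting at 0) of each of the 9 enzymes in every library of the 4 groups, with the mean and SD of 3 libraries. KO libraries lie above WT libraries for Cs and Idh2 in both conditions, and Fh1 lies lower in KO libraries after running; elsewhere the genotypes overlap.

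Idh2, the mitochondrial NADP-dependent isocitrate dehydrogenase, rose in KO muscle in both conditions. After running it measured 161, 145 and 187 FPKM in KO libraries, against 104, 108 and 80.0 FPKM in WT libraries. At rest it measured 165, 201 and 217 FPKM in KO libraries, against 99.99, 70.5 and 82.8 FPKM in WT libraries. The lowest KO library thus lay above the highest WT library in each condition. The log2 difference was 0.76 (SE 0.15, limma adjusted p = 0.0402) after running and 1.20 (SE 0.16, limma adjusted p = 0.0148) at rest, on the log2(FPKM + 1) scale. The KO mean was 1.69 times the WT mean after running and 2.30 times at rest, and the q-value in the authors' deposited table was 0.00132 after running and 0.00119 at rest.

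The limma call of Idh2 after running was lost with any of the 6 libraries left out. The adjusted p was then 0.0967, 0.0806 and 0.102 without KO running libraries 1, 2 and 3, and 0.0867, 0.0886 and 0.106 without WT running libraries 1, 2 and 3 (limma). At rest it passed in 4 of 6 such fits and missed 0.05 without WT resting library 2 (limma adjusted p = 0.0683) or KO resting library 3 (limma adjusted p = 0.0607). The log2 difference lay between 0.62 and 0.84 after running and between 1.08 and 1.33 at rest over these fits.

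Cs, which commits acetyl-CoA to the cycle, had higher values in every KO library without passing either test. After running it measured 429, 392 and 378 FPKM in KO libraries, against 304, 302 and 293 FPKM in WT libraries. At rest it measured 342, 401 and 391 FPKM in KO libraries, against 315, 287 and 246 FPKM in WT libraries. The genotypes did not overlap in either condition, and the KO mean was 1.33 times the WT mean after running and 1.34 times at rest. The log2 difference was 0.41 (SE 0.10, limma adjusted p = 0.0757) after running and 0.42 (SE 0.13, limma adjusted p = 0.109) at rest. The q-value of Cs in the authors' deposited table was 0.164 after running and 0.0516 at rest. When limma was fitted on all 12 libraries together, which pools their spread, Cs passed after running (limma adjusted p = 0.0439) and at rest (limma adjusted p = 0.0368). That fit called 586 genes after running and 672 at rest, against 337 and 434 in the main fits. With 1 library left out, Cs passed in 0 of 6 fits in each condition. The highest limma adjusted p was then 0.197 after running and 0.280 at rest. Cs also missed 0.05 with no filter on tested genes, without the variance trend and with the replicate number as a block. The limma adjusted p then ran from 0.107 to 0.213.

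To show the sequence context of these differences, the 250 bases upstream of the annotated start are given for Cs and Idh2, the members with higher values in every KO library, and for Sdha, an abundant member whose genotypes overlapped. They come from RefSeq (GRCm38.p6; the expression files used mm9), read 5′ to 3′ on the gene's strand. Capitals mark matches on either strand to the box CCAAT, to the GC box with the letters GGGCGG, or to the core motif of nuclear respiratory factor NRF1.
Cs, chr10:128337477-128337726, plus strand: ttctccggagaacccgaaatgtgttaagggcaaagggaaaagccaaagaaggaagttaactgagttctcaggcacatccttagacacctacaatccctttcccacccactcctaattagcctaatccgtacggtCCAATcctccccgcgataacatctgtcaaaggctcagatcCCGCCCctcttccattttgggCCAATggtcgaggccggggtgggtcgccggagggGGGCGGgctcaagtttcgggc
Idh2, chr7:80115351-80115600, minus strand: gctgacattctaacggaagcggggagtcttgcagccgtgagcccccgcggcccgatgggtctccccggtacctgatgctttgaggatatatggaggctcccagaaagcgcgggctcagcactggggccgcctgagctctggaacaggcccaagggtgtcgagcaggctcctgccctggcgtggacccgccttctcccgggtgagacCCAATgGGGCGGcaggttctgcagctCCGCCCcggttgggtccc
Sdha, chr13:74350241-74350490, minus strand: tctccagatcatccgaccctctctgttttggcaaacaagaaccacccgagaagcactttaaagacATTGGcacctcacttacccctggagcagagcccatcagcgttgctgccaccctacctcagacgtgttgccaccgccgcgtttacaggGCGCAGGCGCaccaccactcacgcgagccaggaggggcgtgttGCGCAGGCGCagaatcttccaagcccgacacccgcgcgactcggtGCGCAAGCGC

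RefSeq gave upstream windows for 8 of the 9 members; Idh3a had none in the table used. The Idh2 window lies inside the span annotated for that gene. Cs holds 2 CCAAT and 2 GGGCGG matches, and Idh2 holds 1 CCAAT and 2 GGGCGG matches, motifs found in 33.8% and 32.7% of all 32851 windows. The same motifs occur in other members. Fh1 holds 2 CCAAT and 1 GGGCGG matches, the first Ogdh window 2 CCAAT, Sdha 1 CCAAT, and Sucla2 and Mdh2 1 GGGCGG each. Sdha holds 3 NRF1 matches and Sucla2 holds 1, against 3.74% of all windows with any. The windows of Sdha and Sucla2 hold 61.6% and 61.2% GC and 21 and 18 CpG, against medians of 52.4% and 6 over all windows. The shares over all windows were not matched for GC. The E-box CACGTG, present in 6.02% of windows, was found only in alternative windows of Ogdh among the members. AAGGTCA, the core of the site bound by oestrogen-related receptors, and its extension TCAAGGTCA, which overlaps it, were not found in these letters in any member window, against 4.08% and 0.387% of all windows. These matches describe the windows and say nothing of binding.

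The remaining steps of the cycle gave no call in either condition. Idh3a, catalytic subunit of the NAD-dependent enzyme, measured 331, 259 and 259 FPKM in KO libraries after running, against 275, 268 and 256 FPKM in WT libraries. At rest it measured 258, 299 and 274 FPKM in KO libraries, against 329.6, 281 and 238 FPKM in WT libraries. The genotypes overlapped in both conditions, with log2 differences of 0.08 (95% interval -0.22 to 0.37) after running and -0.02 (95% interval -0.34 to 0.30) at rest. The interval for Idh3a at rest thus lies below that for Idh2, which ran from 0.83 to 1.57; the difference between these genes was not tested.

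Ogdh, the substrate-binding component of the 2-oxoglutarate dehydrogenase complex, measured 148, 93.2 and 99.6 FPKM in KO libraries after running, against 95.4, 96.2 and 84.9 FPKM in WT libraries. KO running library 1 alone was high. At rest Ogdh measured 90.6, 95.3 and 105 FPKM in KO libraries, against 98.1, 89.9 and 78.9 FPKM in WT libraries. The groups overlapped, with log2 differences of 0.27 (95% interval -0.14 to 0.68) after running and 0.12 (95% interval -0.14 to 0.39) at rest. Without KO running library 1 the difference after running was 0.066, and at rest it lay between 0.041 without WT resting library 3 and 0.20 without WT resting library 1.

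Succinyl-CoA synthetase pairs the common alpha subunit Suclg1 with a beta subunit, and Sucla2 encodes the beta subunit of the ATP-forming enzyme. Sucla2 measured 286, 322 and 297 FPKM in KO libraries after running, against 374, 314 and 352 FPKM in WT libraries (log2 difference -0.20, 95% interval -0.46 to 0.07). At rest it measured 308, 344 and 328 FPKM in KO libraries, against 363, 316 and 265 FPKM in WT libraries (log2 difference 0.06, 95% interval -0.24 to 0.37). Suclg1 lay between 157 and 206 FPKM in KO libraries after running, against 169 to 194 FPKM in WT libraries. At rest Suclg1 lay between 156 and 188 FPKM in KO libraries, against 158 to 222 FPKM in WT libraries. Both subunits overlapped between genotypes in each condition.

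Sdha, the flavoprotein of succinate dehydrogenase, which is also part of the respiratory chain in the inner membrane, measured 353, 316 and 294 FPKM in KO libraries after running, against 315, 314 and 301 FPKM in WT libraries. At rest it measured 269.9, 331 and 326 FPKM in KO libraries, against 333, 302 and 261 FPKM in WT libraries. The log2 difference was 0.05 in both conditions, with 95% intervals of -0.21 to 0.30 after running and -0.26 to 0.36 at rest.

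Fh1, which hydrates fumarate to malate, was the only member with lower values in every KO library of a condition. After running it measured 163, 172 and 164 FPKM in KO libraries, against 233, 206 and 223 FPKM in WT libraries (log2 difference -0.41, SE 0.10, limma adjusted p = 0.0769). At rest it measured 173, 193 and 174 FPKM in KO libraries, against 222, 210.2 and 166 FPKM in WT libraries (log2 difference -0.14, SE 0.13, limma adjusted p = 0.591). The resting difference lay between -0.27 without WT resting library 3 and -0.056 without WT resting library 1. The genotypes did not overlap after running but did at rest, and neither test was passed; the q-value after running in the authors' deposited table was 0.115. Mdh2, which regenerates oxaloacetate, measured 292, 189.9 and 223 FPKM in KO libraries after running, against 255, 315 and 227 FPKM in WT libraries. At rest Mdh2 measured 176, 230.3 and 205 FPKM in KO libraries, against 195, 224 and 232 FPKM in WT libraries. Mdh2 overlapped between genotypes in both conditions and had the largest SD of the members in WT running muscle, at 44.9 FPKM.

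Of the 9 members, limma thus called 1 higher and 0 lower in each condition. Over all genes tested it called 3.73% after running (337 of 9037; 1.58% higher and 2.15% lower) and 4.72% at rest (434 of 9204; 3.04% higher and 1.67% lower). At an unadjusted p under 0.05, limma listed 3 of 9 members after running, against 19.9% of all genes, and 2 of 9 at rest, against 21.5%. The authors' deposited table also called only Idh2 among the members, where it called 9.57% of genes after running and 10.8% at rest; both tests together called 3.43% after running and 4.27% at rest. KO and WT libraries did not overlap for 3 of 9 members after running, against 26.1% of all genes tested, and for 2 of 9 at rest, against 28.0% of all genes tested. The median log2 difference of the members was 0.05 in each condition, against 0.00 after running and 0.01 at rest for all genes tested.

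**Figure D2:**
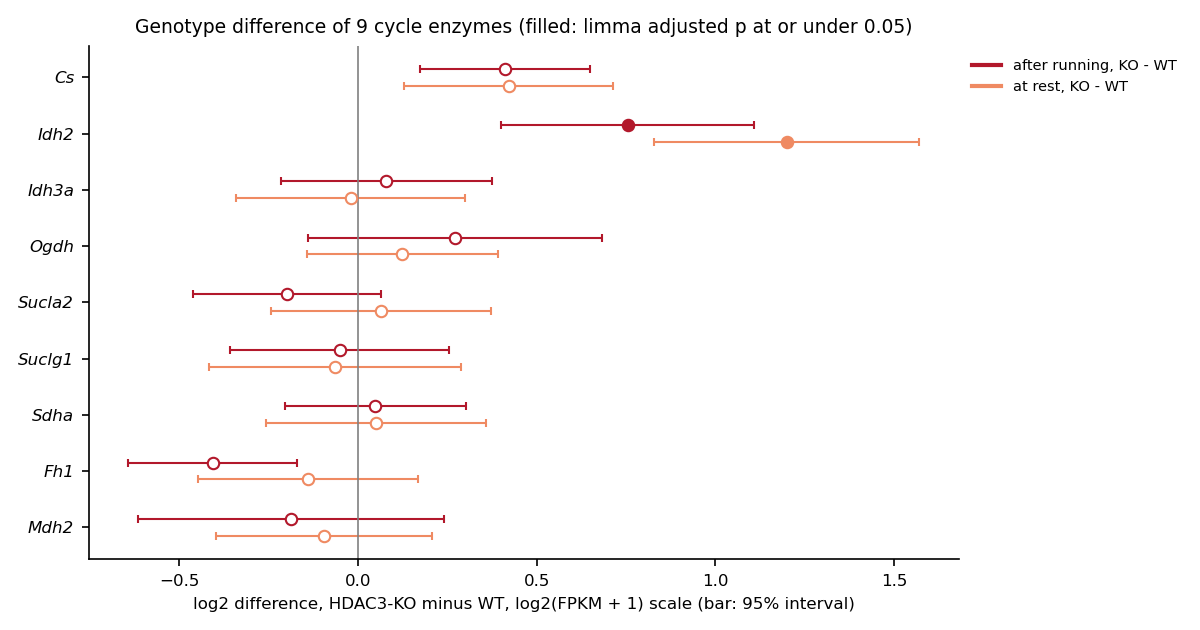
Log2 difference of HDAC3-KO minus WT for each enzyme after running and at rest, with 95% intervals from limma on log2(FPKM + 1); filled points passed an adjusted p of 0.05. Idh2 alone is filled, Cs lies above 0 and Fh1 below 0 after running, and the other intervals include 0.

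Marker genes of other cells were read beside these differences. The summed level of the 10 muscle fibre markers ran from 69907 to 79987 FPKM in KO running libraries, against 80995 to 96340 FPKM in WT running libraries, and from 68657 to 85156 FPKM in KO resting libraries, against 72304 to 81144 FPKM in WT resting libraries. It was therefore lower in KO libraries after running, without overlap, and overlapped at rest. Singly, Tnnt3, Tnni2 and Mylpf did not overlap between genotypes after running, and the other fibre markers did. Neither limma nor the authors' deposited table called any of the 10 in either condition (0 of 10). The 9 immune markers summed to between 50.9 and 380 FPKM in KO running libraries, against 32.4 to 41.0 FPKM in WT running libraries, and to between 34.9 and 65.8 FPKM in KO resting libraries, against 55.5 to 524 FPKM in WT resting libraries. The tops of 380 and 524 FPKM came from KO running library 3 and WT resting library 2. There S100a8 and S100a9 stood at 156 and 148 FPKM and at 239.5 and 222 FPKM. At most 6.41 FPKM was seen for either gene in any other library. After running the immune sum did not overlap between genotypes, and all 5 immune markers tested had a positive log2 difference (median 1.48). limma called 1 of these 5 higher, and the authors' deposited table called 5. Lyz2 measured 36.4, 54.4 and 60.0 FPKM in KO running libraries, against 32.6, 26.1 and 20.2 FPKM in WT running libraries. At rest 1 of 5 was positive, limma called 0, and the authors' deposited table called 2 lower. The 5 Schwann and nerve markers summed to between 15.7 and 18.3 FPKM in KO running libraries, against 18.9 to 22.4 FPKM in WT running libraries, and overlapped at rest. Slow fibre, adipocyte, fibroblast, endothelial, erythroid and satellite cell markers overlapped between genotypes in both conditions, and no marker found was at 0 in all libraries. A level of 1 FPKM was reached in every library by 2 of 9 immune and 3 of 5 nerve markers. The part of these shifts in the cycle transcripts was not tested. In whole muscle, fewer cells of a type and less RNA per cell cannot be told apart.

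Shares of the summed FPKM of the 9 enzymes cancel any scale factor of a library and show how the make-up of this transcript pool differed. Cs made up 18.1%, 19.1% and 18.3% of the sum in KO running libraries, against 14.1%, 14.4% and 14.8% in WT running libraries. It made up 17.7%, 17.6% and 17.8% in KO resting libraries, against 14.5%, 14.8% and 14.2% in WT resting libraries. All 6 KO libraries thus held a Cs share above every WT library, in a narrower band than the FPKM themselves. The Idh2 share was 7.65% ± 1.26 in KO running and 4.66% ± 0.574 in WT running libraries, and 9.08% ± 0.720 in KO resting and 4.33% ± 0.622 in WT resting libraries (SD, n = 3 each). The Fh1 share was 7.73% ± 0.775 in KO running and 10.6% ± 0.745 in WT running libraries, and 8.42% ± 0.487 in KO resting and 10.2% ± 0.612 in WT resting libraries (SD, n = 3 each). Fh1 shares did not overlap between genotypes in either condition.

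**Figure D3:**
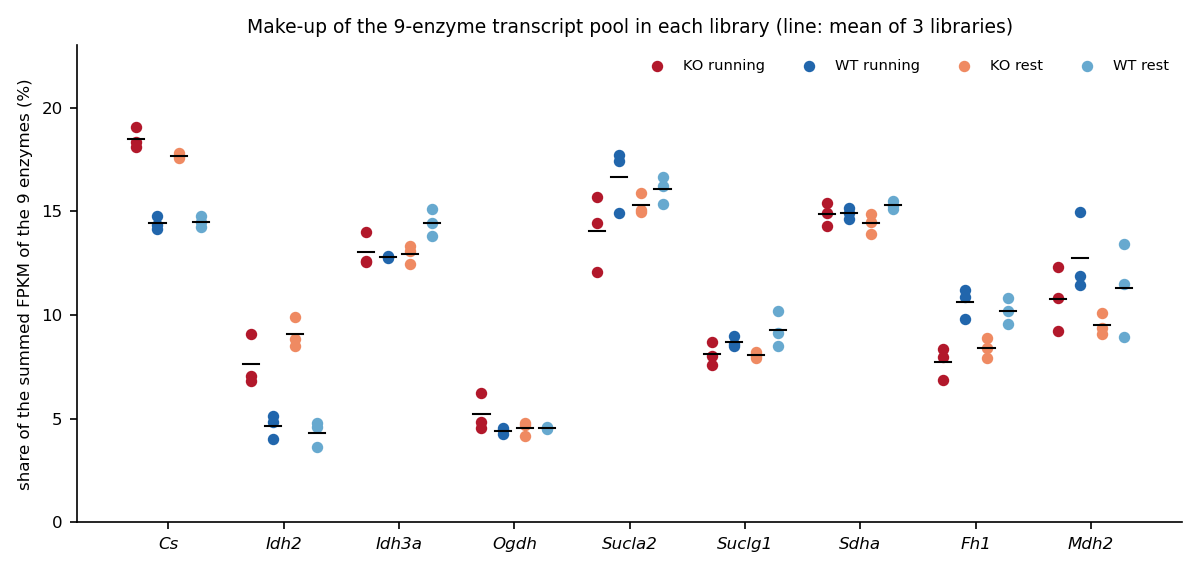
Share of each enzyme in the summed FPKM of the 9 enzymes (vertical axis, percent), per library and group, with the mean of 3 libraries as a line. KO libraries hold larger Cs and Idh2 shares and smaller Fh1 shares than WT libraries in both conditions.

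Shares of 1 pool depend on each other, so a larger Cs share lowers the rest, and no test was run on them. At rest the shares of Idh3a, Suclg1 and Sdha were also lower in every KO library than in any WT library, whereas the FPKM of these genes overlapped. The sum itself was 2161 ± 179.9 FPKM in KO running and 2081 ± 84.6 FPKM in WT running libraries (SD, n = 3 each). At rest it was 2138 ± 179 FPKM in KO and 1951 ± 225 FPKM in WT libraries (SD, n = 3 each). The libraries of the 2 genotypes overlapped in both conditions.

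Ratios of levels within a library were chosen after the values were seen and were not tested. The level of Cs was 2.41 ± 0.199 times that of Fh1 in KO running and 1.36 ± 0.0908 times in WT running libraries, and 2.11 ± 0.133 times in KO resting and 1.42 ± 0.0609 times in WT resting libraries (SD, n = 3 each). Idh2 stood at 0.589 ± 0.121 of Idh3a in KO running and 0.365 ± 0.0465 in WT running libraries, and at 0.702 ± 0.0800 in KO resting and 0.301 ± 0.0479 in WT resting libraries (SD, n = 3 each). NADP-dependent enzyme transcript thus stayed below that of the NAD-dependent catalytic subunit in every library. Against its cytosolic counterpart Idh1, Idh2 was 10.1 ± 1.12 times as high in KO running and 5.08 ± 1.75 times in WT running libraries, and 12.2 ± 1.31 times in KO resting and 5.62 ± 1.12 times in WT resting libraries (SD, n = 3 each).

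Within groups most pairs of members varied together from library to library. Deviations from the group mean, on the log2(FPKM + 1) scale over 12 libraries, gave positive Pearson r for 34 of 36 pairs, with a median of 0.54; the libraries, their scaling and their cells are shared by all pairs. Cs and Sdha were the closest pair (r = 0.98), followed by Idh3a and Suclg1 (r = 0.95) and by Sucla2 and Fh1 (r = 0.94). Mdh2 and Sucla2 had a negative r (-0.47). Centring on group means leaves fewer than 12 independent values, and no r was tested. Pairs of other genes were not computed, so these r values are not shown to be particular to the cycle enzymes. Idh2, with a median r of 0.35 over its 8 pairs, and Mdh2, with 0.33, followed the rest least. WT resting library 1 lay above its group mean for 8 of 9 members (median deviation 0.17), and WT resting library 3 for 1 of 9 (median deviation -0.19). KO resting library 1 lay below its group mean for all 9 members (median deviation -0.14). All genes tested in both conditions had a median deviation between -0.02 and 0.01 in these libraries.

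**Figure D4:**
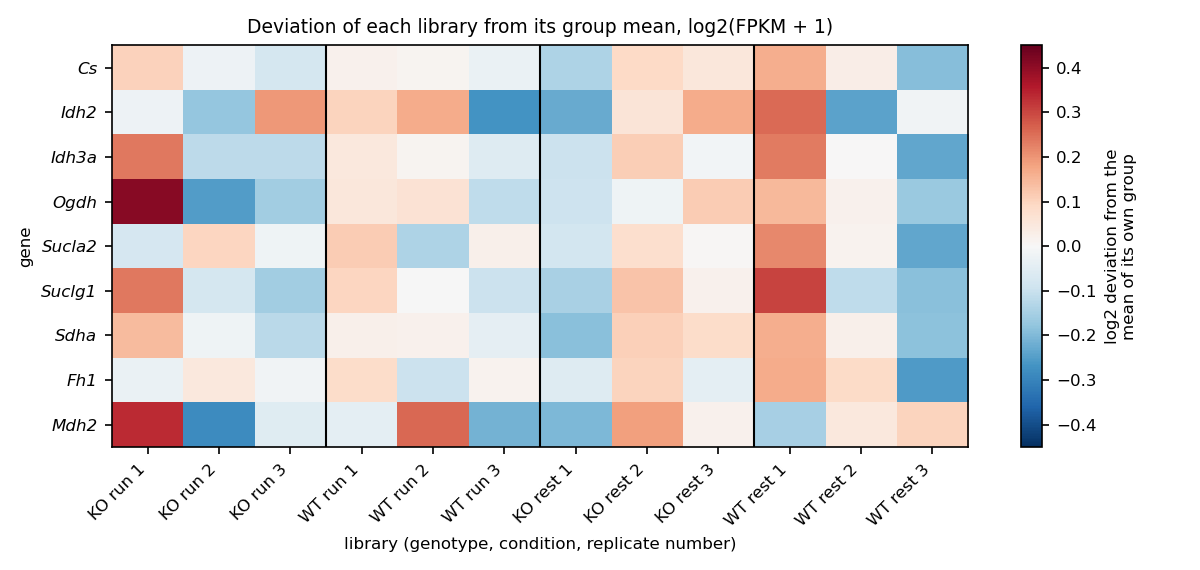
Colour gives the log2 deviation of each enzyme (rows) in each library (columns) from the mean of its own group, on the log2(FPKM + 1) scale. WT resting library 1 is raised and WT resting library 3 lowered for nearly all enzymes, and KO running library 1 stands out for Ogdh and Mdh2.

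By the likeness rule, the 3 genes whose pattern over 12 libraries was closest to Idh2, after each condition was centred on its own mean, were Herpud1 (r = 0.98), Grpel1 (r = 0.97) and Dgat2 (r = 0.97). Herpud1 acts in degradation at the endoplasmic reticulum, Grpel1 is a nucleotide exchange factor of the mitochondrial HSP70, and Dgat2 completes triglyceride synthesis. Grpel1 measured 30.8 ± 1.61 FPKM in KO running and 23.7 ± 0.438 FPKM in WT running libraries, and 31.9 ± 1.05 FPKM in KO resting and 21.5 ± 0.463 FPKM in WT resting libraries (SD, n = 3 each). The 3 genes closest to Cs were Fyco1 (r = 0.98), Limch1 (r = 0.98) and Polr1a (r = 0.97), and Idh2 ranked 92 (r = 0.89). These values include the genotype difference itself and are descriptions.

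Other genes of the cycle, its isoforms and its points of entry and exit were read from a list of 27, of which 24 were tested in each condition. At rest limma called 4 of 24 higher and 0 lower, against 4.72% of all genes tested in either direction. The authors' deposited table called the same 4, against 10.8% of all genes tested. After running limma called 0 of 24, against 3.73% of all genes (10 at an unadjusted p under 0.05, against 19.9%). The authors' deposited table called 1 of 24 lower after running, against 9.57% of all genes in either direction. KO and WT libraries did not overlap for 13 of 24 after running (6 higher, 7 lower), against 26.1% of all genes. At rest they did not overlap for 7 of 24, or 29.2% (6 higher, 1 lower), a share near the 28.0% of all genes. The malic enzymes Me1 and Me2 and the aminotransferase Got1 were among those that rose at rest. After running their KO libraries also lay above all WT libraries, but neither test called them. Me1 then measured 67.7 ± 7.15 FPKM in KO and 49.1 ± 2.30 FPKM in WT libraries (SD, n = 3 each, limma adjusted p = 0.0791). Me2 measured 2.62 ± 0.245 against 1.42 ± 0.376 FPKM (limma adjusted p = 0.112). Got1 measured 443 ± 26.3 against 343 ± 51.4 FPKM (limma adjusted p = 0.168).

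Got1, the cytosolic aspartate aminotransferase, measured 377 ± 39.8 FPKM in KO resting and 252 ± 20.5 FPKM in WT resting libraries (SD, n = 3 each, limma adjusted p = 0.0377). Me1, the cytosolic NADP-dependent malic enzyme, measured 71.8 ± 4.75 FPKM in KO resting and 47.9 ± 3.06 FPKM in WT resting libraries (SD, n = 3 each, limma adjusted p = 0.0245). Me2, a mitochondrial malic enzyme, stood far lower, at 2.98 ± 0.0305 FPKM in KO resting and 1.51 ± 0.202 FPKM in WT resting libraries (SD, n = 3 each, limma adjusted p = 0.0384). With 1 resting library left out, Got1 and Me2 passed in 0 of 6 fits each, with highest limma adjusted p of 0.145 and 0.134. Me1 passed in 1 of 6, without WT resting library 3, and had a limma adjusted p of up to 0.0936 in the others. For Got1, Me1 and Me2 the highest adjusted p came without WT resting library 2.

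**Figure D5:**
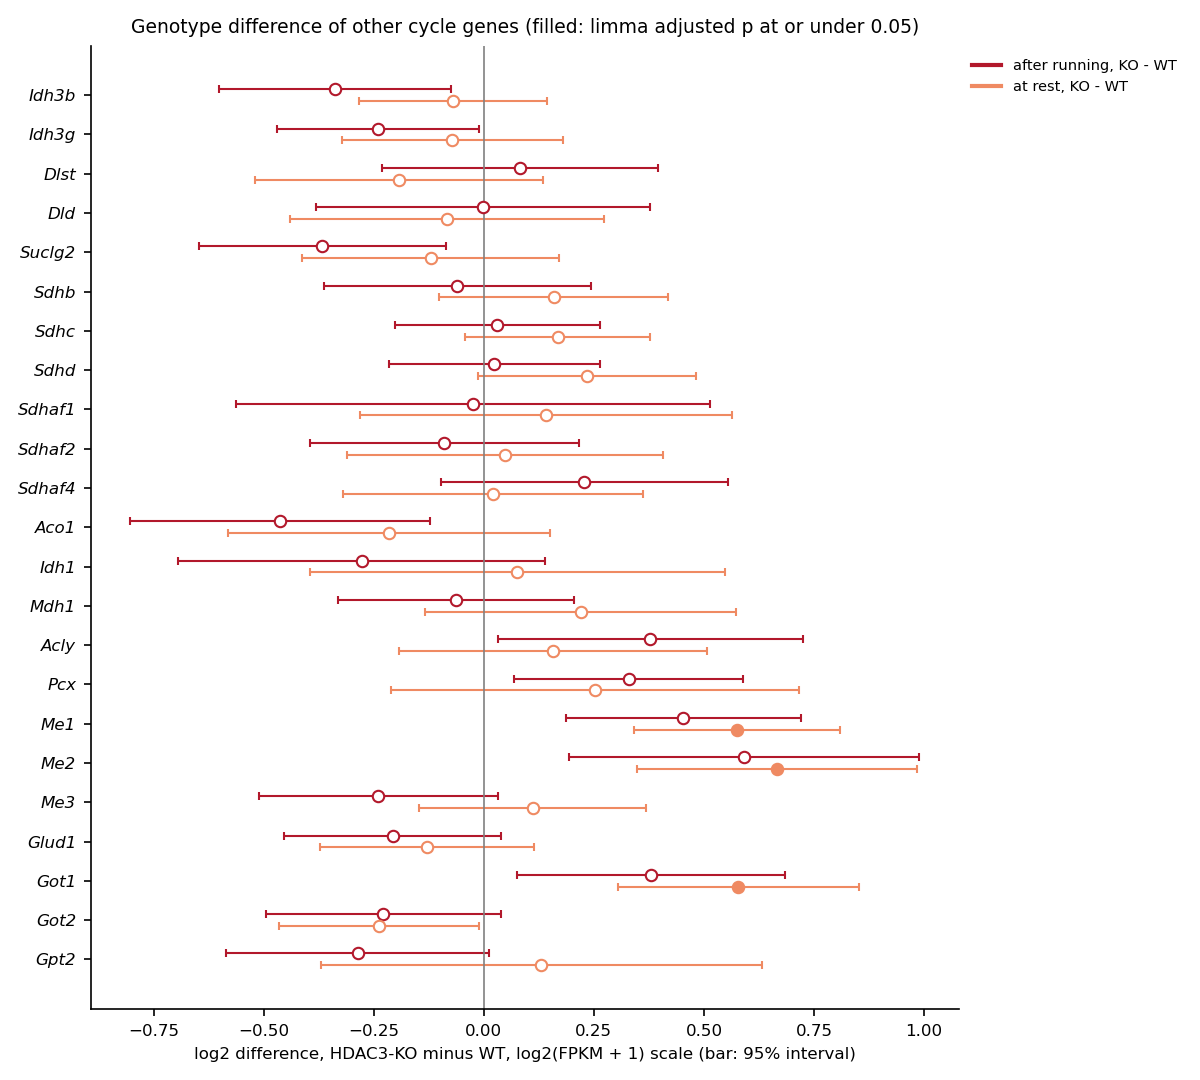
Log2 difference of HDAC3-KO minus WT for tested genes of the wider cycle list after running and at rest, with 95% intervals from limma on log2(FPKM + 1); filled points passed an adjusted p of 0.05. Me1, Me2 and Got1 are filled at rest, and no gene drawn is filled after running.

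No partner subunit of the members passed limma in either condition. Idh3b and Idh3g, regulatory subunits of the NAD-dependent enzyme, measured 269 ± 29.0 and 246 ± 11.1 FPKM in KO running libraries, against 339 ± 4.44 and 291 ± 8.78 FPKM in WT running libraries (SD, n = 3), without overlap (limma adjusted p = 0.159 and 0.234). Suclg2, beta subunit of the GTP-forming succinyl-CoA synthetase, measured 25.0 ± 1.52 FPKM in KO running and 32.6 ± 3.60 FPKM in WT running libraries (SD, n = 3 each, limma adjusted p = 0.154). Sucla2 exceeded Suclg2 by 12.1 ± 0.498 times in KO running and 10.6 ± 0.329 times in WT running libraries, and by 12.2 ± 0.541 times in KO resting and 10.7 ± 0.152 times in WT resting libraries (SD, n = 3 each). Idh3b, Idh3g and Suclg2 were named after their values were seen. At rest each overlapped between genotypes. Idh3b and Idh3g then measured 292 ± 6.50 and 261 ± 19.6 FPKM in KO libraries, against 307 ± 15.6 and 274 ± 21.0 FPKM in WT libraries. Suclg2 measured 26.9 ± 0.844 FPKM in KO resting and 29.5 ± 4.41 FPKM in WT resting libraries (SD, n = 3 each). The limma adjusted p at rest was 0.713, 0.753 and 0.627 for Idh3b, Idh3g and Suclg2. Sdhb and Sdhd, further subunits of succinate dehydrogenase, measured 480.3 ± 50.6 and 331 ± 18.0 FPKM in KO running libraries, against 501 ± 55.0 and 326 ± 16.0 FPKM in WT running libraries (SD, n = 3), with overlap. At rest they measured 487 ± 53.7 and 342 ± 13.6 FPKM in KO libraries, against 435 ± 6.88 and 292 ± 27.4 FPKM in WT libraries (SD, n = 3, limma adjusted p = 0.465 and 0.258), and Sdhd did not overlap. Mdh1, the cytosolic malate dehydrogenase, measured 502 ± 42.9 FPKM in KO running and 524 ± 37.8 FPKM in WT running libraries (SD, n = 3 each, limma adjusted p = 0.805). At rest Mdh1 measured 547 ± 46.8 FPKM in KO and 474 ± 84.8 FPKM in WT libraries, with overlap (limma adjusted p = 0.454). Aco1, cytosolic aconitase, was called lower after running in the authors' deposited table (q = 0.0421) but not by limma (adjusted p = 0.14), with 4.41 ± 0.399 FPKM in KO running and 6.50 ± 1.11 FPKM in WT running libraries (SD, n = 3 each). At rest Aco1 measured 4.60 ± 0.839 FPKM in KO and 5.48 ± 0.788 FPKM in WT libraries, with overlap (limma adjusted p = 0.479).

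The genotype effect after running was compared with that at rest by a contrast over all 12 libraries. limma called 0 of 8854 genes, 0% (433, or 4.89%, at an unadjusted p under 0.05, and no other tool was run), and 0 of 9 members, with 0 members at an unadjusted p under 0.05. For Idh2 the effect was 0.44 smaller after running on the log2 scale (difference -0.44, 95% interval -0.95 to 0.06, limma adjusted p = 0.923). For Cs the difference was -0.01 (95% interval -0.35 to 0.32), for Fh1 -0.27 (95% interval -0.62 to 0.08) and for Sucla2 -0.26 (95% interval -0.63 to 0.11). A different genotype effect in the 2 conditions was thus not detected for any member, and the intervals leave room for sizeable ones.

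Running and resting libraries stood in tables of separate genotype comparisons and are taken as normalized separately, though the settings are not given. Their levels are therefore set side by side without a test. In KO muscle the ratio of the running mean to the resting mean ran from 0.845 for Idh2 to 1.17 for Ogdh, against a median of 0.983 over all genes tested in both conditions. In WT muscle it ran from 0.941 for Idh3a to 1.23 for Mdh2, against a median of 0.999. Running and resting libraries overlapped for 8 of 9 members in KO muscle and for 9 of 9 in WT muscle. Over all genes tested in both conditions, 15.9% did not overlap in KO muscle and 15.7% in WT muscle, so 1 of 9 is near the background. The exception in KO muscle was Fh1, whose KO running libraries reached at most 172 FPKM, against at least 173 FPKM in KO resting libraries.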

How the data were processed

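FPKM values per library, from whole quadriceps RNA, were deposited by the authors in 1 table per condition; the condition was taken from each table's name and the sample titles, since the treatment text is the same for resting and running samples. TopHat2, Bowtie, Cuffdiff, HOMER and build mm9 are named in the submitters' processing notes; versions, settings, annotation and strand are not given in the sources used here. The authors also deposited a p-value and a q-value per gene from their own genotype comparison, and genes with a deposited p under 1 were taken as tested (9037 after running, 9204 at rest). Among running names, 27 had become dates and were left out. No library column was left unmatched, and the 4 GRO-seq libraries were not analysed here.

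limma 3.58.1 in R 4.3.3 was fitted on log2(FPKM + 1) of all genes tested, letting the prior variance follow the mean level; tests were two-sided and p-values adjusted by Benjamini-Hochberg, called at 0.05. Genotypes were compared within a table (6 libraries); the difference between conditions used 12 libraries and 8854 genes. Genes are said to rise or fall only where limma and the authors' q passed together. The fit was tested on simulated data. These were drawn with independent noise for each gene, without the deviations that members of a library share here. At most 1 of 8566 values was identical in a pair of libraries, so no library column repeats another. This cannot show that the libraries came from separate animals. Named genes were the 9 members, Hdac3, called genes of the wider cycle list with its 5 most abundant, and the 3 genes most like Idh2 and Cs. The members and lists, markers included, were chosen with earlier results of these data known. Alternatives covered the pseudocount, filter, scaling, variance trend, replicate block, pooled fit, the authors' q and each library left out. One gene of the wider cycle list, included in its counts, is not reported here.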

Additional observations from a re-analysis of the deposited data

How the results depend on the processing

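Over all genes tested, limma called 337 after running and 434 at rest. The counts were 109 and 247 with no filter on tested genes, 586 and 672 in one fit over 12 libraries, and 865 and 998 by the authors' deposited q. With the replicate number as a block they were 170 after running and 52 at rest. The same-numbered libraries did not deviate together (r from -0.329 to 0.0487 over 6 pairs), so the numbers are not taken as a pairing; under the block limma called 0 members and 0 other cycle genes in both conditions. Members called after running were 0 with no filter and 0 without the variance trend, and 2 (Cs and Idh2) in the fit over 12 libraries, as at rest. Other cycle genes called after running were 2 in that fit and 1 by the authors' q; at rest 1 was called with no filter. The cause of these shifts was not tested.

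With 1 library left out, limma called 70 to 103 genes after running and 20 to 292 at rest (20 without WT resting library 2), 0 members after running, 0 to 1 at rest, and 0 to 1 other cycle genes at rest. For the difference between conditions it called 0 to 1 genes (1 without WT running library 3). Small log2 differences changed sign. After running, the range was -0.039 to 0.14 for Idh3a, -0.17 to 0.027 for Suclg1 and -0.022 to 0.11 for Sdha. At rest it was -0.14 to 0.10 for Idh3a, -0.053 to 0.17 for Sucla2, -0.16 to 0.088 for Suclg1, -0.043 to 0.14 for Sdha and -0.19 to 0.0071 for Mdh2. For the difference between conditions it was -0.092 to 0.085 for Cs, -0.018 to 0.22 for Idh3a, -0.058 to 0.27 for Ogdh, -0.14 to 0.11 for Suclg1, -0.096 to 0.091 for Sdha and -0.26 to 0.047 for Mdh2; Sdha was 0.0033 with libraries centred on their median. Other uncalled differences kept their sign but moved by over 1.5 times: 0.066 to 0.40 (Ogdh) and -0.36 to -0.047 (Mdh2) after running, 0.041 to 0.20 (Ogdh) and -0.27 to -0.056 (Fh1) at rest, and, between conditions, -0.35 to -0.14 (Fh1) and -0.37 to -0.14 (Sucla2). The pseudocount and the 1 FPKM filter changed no call among members. Read depth was unknown, so precision rests on 3 libraries a group.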
